A study of Arabidopsis thaliana with 8 samples.

Results

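Phosphate starvation and lipid remodelling genes are described here through 10 loci of Arabidopsis thaliana: the sensors SPX1 and SPX3, the phosphate transporters PHT1;1 and PHT1;4, the sulfolipid enzymes SQD1 and SQD2, the galactolipid enzymes MGD2 and MGD3, and the glycerophosphodiester phosphodiesterases GDPD1 and GDPD6. GDPD6 was chosen by its measured log2 difference between the lines, and the other 9 were listed for their function, with the question whether the change of GDPD6 was shared. All 10 had a probe, out of 25433 genes with a named probe, and 9 of them were bright enough to be tested. Because GDPD6 was picked for its change, that change is given as a description without a test.

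The samples were whole seedlings harvested at 6 days, grown on full-strength MS medium with 5% sucrose at 22 °C under 16 h light and 8 h dark. One group was wild type of the accession Ws, and the other was tt8-3, a loss-of-function line of the bHLH factor TT8 in the same accession. Each group was measured on 4 one-colour arrays, 2 on each of 2 slides, and the arrays of a line on 1 slide were averaged, which gave 2 slide averages against 2. All seedlings had the same medium, and no phosphate-starved sample is among them. A level is the log2 of a spot's signal less that of its array's 75th percentile, so a level of 0 equals that percentile, and a difference of 1 is a doubling. A level of 1 probe says nothing against the level of another.

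When phosphate is scarce, Arabidopsis turns on a set of genes through the MYB factor PHR1, which SPX proteins hold back in well-supplied cells by sensing inositol pyrophosphates. Root transporters of the PHT1 family then bring more phosphate in, and membranes exchange phospholipids for lipids without phosphorus. Sulfolipid and galactolipids are made in place of the phospholipids, whose glycerophosphodiester remnants are cleaved by GDPD enzymes into glycerol-3-phosphate and an alcohol. Several of these genes, SPX1, SPX3, MGD2, MGD3, SQD2 and GDPD1 among them, are known as strongly induced markers of phosphate starvation.

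TT8 (AT4G09820) itself had levels of 4.27, 4.40, 4.19 and 4.29 on wild-type replicates 1 to 4 and of -6.03, -5.56, -6.94 and -7.07 on tt8-3 replicates 1 to 4. No tt8-3 array measured it well above background, so the transcript was lower there by at least 1520.1-fold (adjusted p = 0.0018 by limma). The place of its single probe relative to the mutation is not given in the sources used here. On both slides wild type filled positions 1 and 2 and tt8-3 positions 3 and 4, so that position and genotype cannot be told apart. The 75th percentile of the signal was 545 to 1108 per array, and 69.0% to 77.3% of probes were well above background.

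GDPD6 (AT5G08030, chromosome 5), a predicted glycerophosphodiester phosphodiesterase, stood lower in tt8-3 by far more than any other locus of the list. Its levels were -2.70, -3.16, -3.12 and -3.33 on wild-type replicates 1 to 4, and -6.21, -6.48, -6.17 and -6.53 on the tt8-3 replicates. The linear signals behind them were 84.1, 89.7, 90.2 and 97.7 units in wild type and 10.8, 8.40, 13.8 and 12.0 units in tt8-3. The groups did not overlap, and the gap between them was several times the spread within either. All 4 wild-type arrays and 2 of 4 tt8-3 arrays read it well above background, so the lower level lay at the edge of detection. The log2 difference was -3.27, or 9.65-fold, with -3.42 on slide 1 and -3.13 on slide 2. Fewer cells with the transcript and less transcript per cell cannot be told apart in whole seedlings.

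Of the 19227 genes tested, TT8 alone had a larger drop than GDPD6, and the next gene in that order was BHLH100 (AT2G41240), a bHLH factor of the iron response, at -2.80. GDPD6 was chosen by this difference and entered the test through wild type alone. Its rank and the range that follows are therefore descriptions. The difference of GDPD6 ranged from -3.42 to -3.12 over 12 fits that left out 1 array or 1 slide average. With normexp background correction, which adds an offset of 50 to signals of this size, it was -0.54 on all spots, where the correction failed on tt8-3 replicate 4, and -1.29 without spots of flagged background, a setting chosen after seeing the data. The size of the difference therefore belongs to the scale used here.

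**Figure D1:**
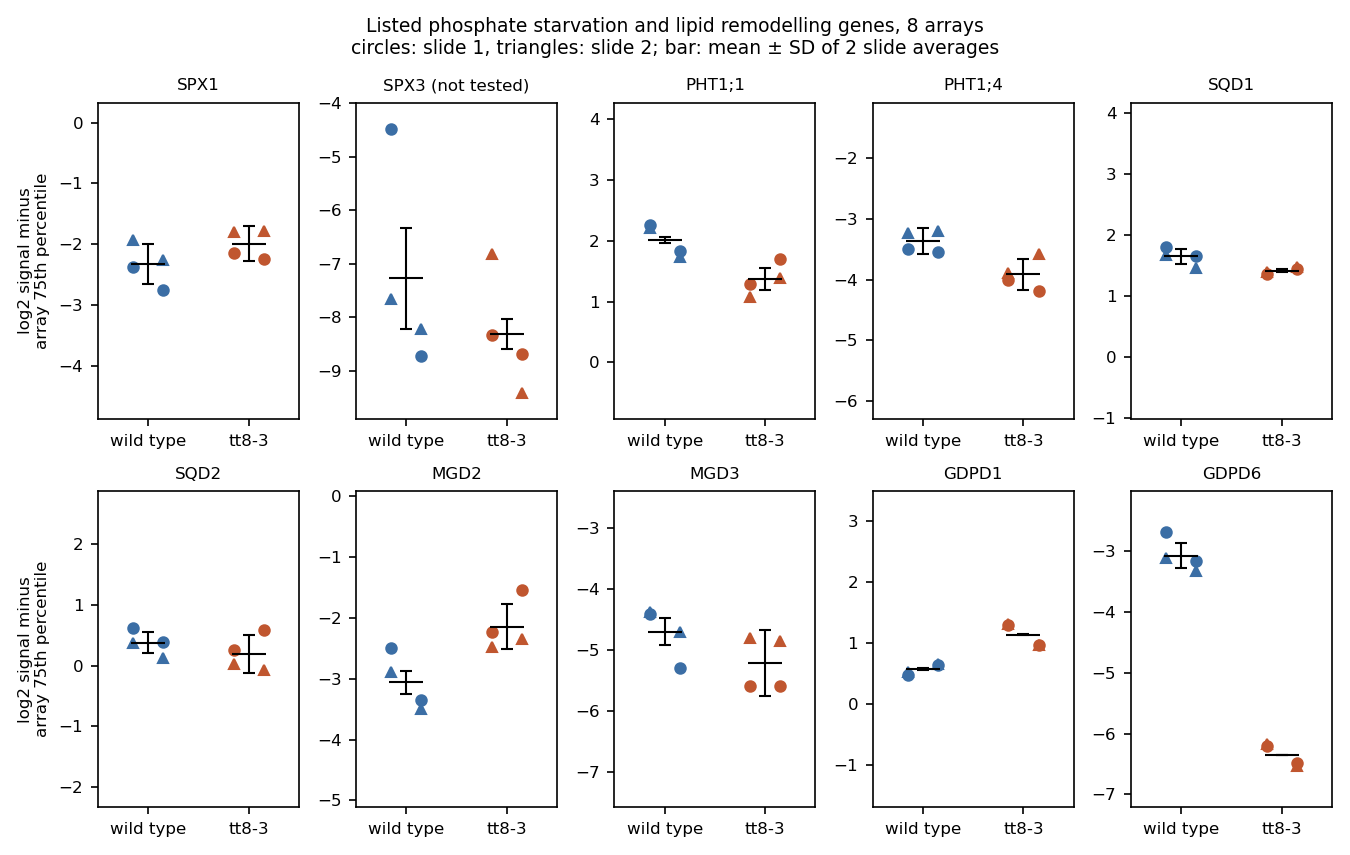
Levels of the 10 listed genes (y axes, log2 signal less the array's 75th percentile) on 4 wild-type and 4 tt8-3 arrays (x axis). Circles are slide 1 and triangles slide 2, the left and right points of a line are its first and second place on a slide, and bars are the mean ± SD of 2 slide averages. The line means of GDPD6 lie over 3 log2 units apart, with a gap of 2.84 between the arrays of the lines. Those of PHT1;1, PHT1;4, MGD2 and GDPD1 lie less than 1 apart without overlap of arrays, and the other genes overlap.

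Among the other 8 tested loci the change of GDPD6 was not found again at that size. GDPD6 was chosen by its change, and TT8 alone fell further among all genes tested. That the others changed less was thus fixed in advance, and only their directions and calls are read here. On slide averages limma called GDPD1 and MGD2 higher and PHT1;1 lower. SPX1, PHT1;4, SQD1, SQD2 and MGD3 did not pass the threshold of 0.05 on the adjusted p. Of all genes tested, 15.7% were called higher and 10.9% lower, so 2 higher and 1 lower of 8 is near the share of the array as a whole. The median change of the 8 was -0.21, against 0.01 over all genes tested. The lowest bound of any of their 95% intervals was -1.32, for MGD3. All 4 tt8-3 arrays lay below all 4 wild-type arrays for PHT1;1 and PHT1;4 and above them for GDPD1 and MGD2. Over all genes tested, 13.5% had every tt8-3 array lower and 19.7% every tt8-3 array higher.

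The calls on these 8 depended on how the arrays were averaged. The design text also allows the arrays at the same place on both slides to be read as technical replicates, and in that reading limma called 0 of the 8 (2 higher and 2 lower at an unadjusted p under 0.05), where 2.74% of all genes were called higher and 0.38% lower. With slide as a block, which pairs the averages of 1 slide, 3 were called higher (SPX1, MGD2 and GDPD1) and 3 lower (PHT1;1, PHT1;4 and MGD3), where 33.8% of all genes were called higher and 30.7% lower. The balance of directions also depended on the scaling, since 3027 genes were called higher and 2104 lower with the 75th percentile and 2150 and 2632 with the array median. The 3 averagings share the same means and differ in the spread. The p-values measure the spread between these averages, which may be technical in part or in whole. Differences between a line's 2 arrays recurred from slide 1 to slide 2 (correlation 0.876 in wild type, 0.666 in tt8-3). Arrays of the same place thus resembled each other, and slide averages take that variation out of the spread and out of the SDs given below. Arrays of 1 line on 1 slide did not, with a consensus correlation of -0.207 in a limma fit of all 8 arrays. If arrays of the same place are repeats of 1 sample, the p-values on slide averages are too small.

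**Figure D2:**
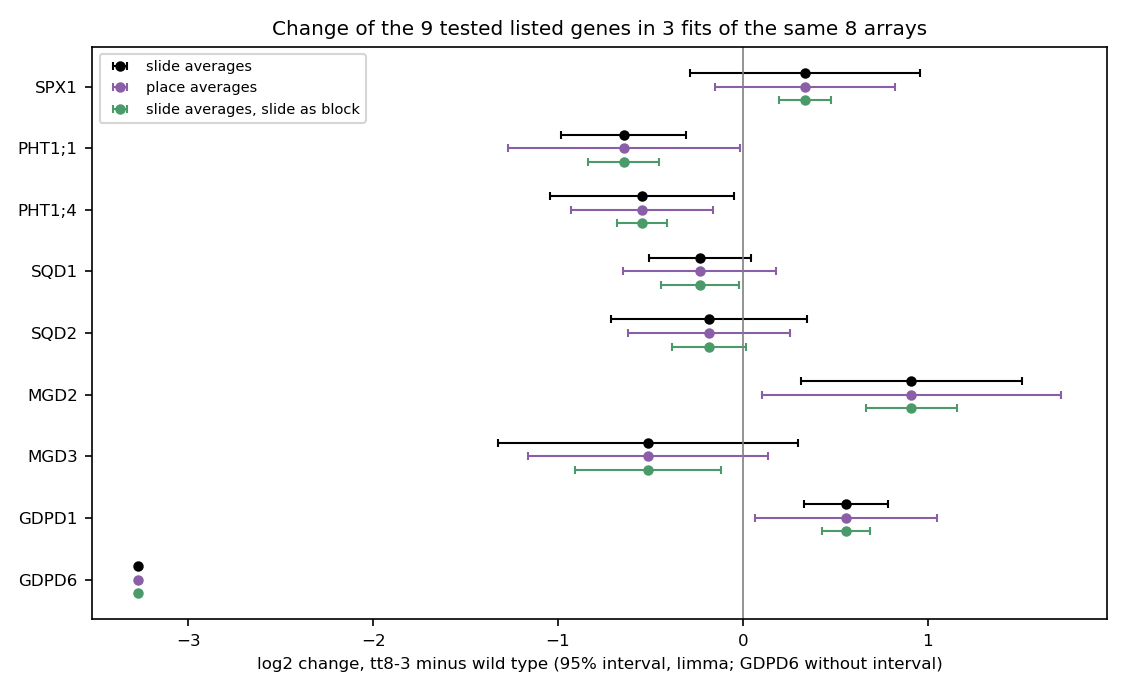
Log2 change, tt8-3 minus wild type (x axis), of the 9 tested loci in 3 fits of the same 8 arrays: slide averages (black), averages over arrays of the same place on both slides (purple), and slide averages with slide as a block (green). Bars are 95% intervals from limma; GDPD6 is drawn without one because it was chosen for its change. The 8 other loci lie between -0.64 and 0.91, and GDPD6 lies at -3.27.

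The SPX proteins are the phosphate sensors of the list. SPX1 (AT5G20150) had levels of -2.37, -2.75, -1.93 and -2.26 in wild type and -2.14, -2.24, -1.80 and -1.79 in tt8-3, replicates 1 to 4 in that order here and below. The groups overlapped, and both lines were higher on slide 2 than on slide 1. The difference was 0.34 (SE 0.23, 95% interval -0.29 to 0.96, adjusted p = 0.33), with 0.37 on slide 1 and 0.30 on slide 2. With slide as a block its adjusted p was 0.0097.

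SPX3 (AT2G45130) had levels of -4.47, -8.73, -7.65 and -8.22 in wild type and -8.32, -8.67, -6.80 and -9.40 in tt8-3. It was well above background on 1 wild-type array and on no tt8-3 array, was therefore not tested, and gives no order between the lines. That wild-type array, replicate 1, stood over 3 log2 units above the other 3.

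Of the 2 transporters, PHT1;1 was called lower on slide averages and PHT1;4 did not pass the threshold. PHT1;1 (AT5G43350), a high-affinity phosphate importer of the root surface, had levels of 2.26, 1.84, 2.22 and 1.73 in wild type and 1.29, 1.70, 1.08 and 1.39 in tt8-3. The ranges came within 0.03 of each other without overlapping. Its level went from 2.01 ± 0.056 in wild type (mean ± SD, n = 2 slide averages) to 1.37 ± 0.18, a fall of 1.56-fold (log2 change -0.64, SE 0.12, adjusted p = 0.030).

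The change of PHT1;1 was -0.56 on slide 1 and -0.73 on slide 2, but -1.05 at the first place of each line and -0.24 at the second. Its adjusted p was 0.21 with arrays of 1 place averaged. The call was also lost without wild-type replicate 1, wild-type replicate 3 or tt8-3 replicate 1, without the wild-type average of either slide and without the tt8-3 average of slide 2, where the adjusted p was 0.069 to 0.13.

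PHT1;4 (AT2G38940), the other main importer of roots, had levels of -3.50, -3.54, -3.24 and -3.20 in wild type and -4.01, -4.18, -3.89 and -3.58 in tt8-3. Every tt8-3 array lay below every wild-type array, and the difference was even over slides and places. It was -0.55 (SE 0.18, 95% interval -1.04 to -0.05, adjusted p = 0.099), and -0.55 again on a second, dimmer probe that was well above background on 2 arrays of each line. With slide as a block the adjusted p was 0.0037, and with quantile normalization 0.041.

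PHT1;1 lies beside PHT1;6, PHT1;3 and PHT1;2 on chromosome 5, with 0 other coding genes between neighbours. PHT1;1, PHT1;2 and PHT1;3 are near-identical copies, and probe sequences were not compared. Cross-hybridisation between the probes of PHT1;1 and PHT1;2 therefore cannot be told apart from expression. PHT1;2 (AT5G43370) had levels of -1.51, -2.13, -1.15 and -1.59 in wild type and -3.49, -3.48, -2.85 and -2.58 in tt8-3. Every tt8-3 array lay below every wild-type array. PHT1;2 fell by 2.83-fold (log2 change -1.50, SE 0.32, adjusted p = 0.038), and its adjusted p was 0.051 with arrays of 1 place averaged. The call was lost without wild-type replicate 1, without tt8-3 replicate 3 and without the wild-type average of slide 2. PHT1;3 and PHT1;6 were well above background on none of the 8 arrays, on all of which PHT1;1 was.

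The sulfolipid enzymes showed the smallest differences of the list. SQD1 (AT4G33030), which makes UDP-sulfoquinovose, had levels of 1.80, 1.66, 1.67 and 1.46 in wild type and 1.35, 1.44, 1.40 and 1.48 in tt8-3. Only wild-type replicate 4 lay within the tt8-3 range, and the difference was -0.23 (SE 0.10, 95% interval -0.51 to 0.04, adjusted p = 0.16). SQD2 (AT5G01220), which joins that sugar to diacylglycerol, had levels of 0.62, 0.39, 0.37 and 0.13 in wild type and 0.25, 0.58, 0.02 and -0.08 in tt8-3. The groups overlapped broadly, and the difference was -0.18 (SE 0.19, 95% interval -0.71 to 0.35, adjusted p = 0.52). In the fit with a slide block the adjusted p was 0.058 for SQD1 and 0.090 for SQD2.

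The galactolipid synthases MGD2 and MGD3, which act at the outer plastid envelope when phosphate is short, had differences of opposite sign. MGD2 (AT5G20410) had levels of -2.50, -3.35, -2.89 and -3.49 in wild type and -2.23, -1.54, -2.47 and -2.34 in tt8-3. The groups came within 0.03 of each other without overlapping. MGD2 rose by 1.88-fold (log2 change 0.91, SE 0.22, adjusted p = 0.049), from a mean of -3.06 ± 0.19 to -2.15 ± 0.37 (SD, n = 2 slide averages).

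The rise of MGD2 was 1.04 on slide 1 and 0.78 on slide 2, and 0.34 at the first place against 1.48 at the second. Its adjusted p was 0.18 with arrays of 1 place averaged. The call was lost in 8 of the 12 fits that left out arrays, namely without wild-type replicate 2, 3 or 4, without tt8-3 replicate 1 or 4, without either wild-type slide average and without the tt8-3 average of slide 1, at an adjusted p of 0.057 to 0.17. With normexp background correction that left out spots of flagged background, the change of MGD2 was 0.44 (adjusted p = 0.10), and quantile normalization and median scaling also ended the call (adjusted p = 0.088 and 0.078).

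MGD3 (AT2G11810) had levels of -4.41, -5.30, -4.38 and -4.71 in wild type and -5.60, -5.60, -4.80 and -4.85 in tt8-3. The groups overlapped through wild-type replicate 2. The difference was -0.51 (SE 0.30, 95% interval -1.32 to 0.30, adjusted p = 0.26), and with slide as a block the adjusted p was 0.040.

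GDPD1 (AT3G02040), a plastid glycerophosphodiester phosphodiesterase, moved the opposite way from GDPD6. Its levels were 0.48, 0.64, 0.53 and 0.65 in wild type and 1.30, 0.97, 1.32 and 0.97 in tt8-3. Every tt8-3 array was above every wild-type array, and the arrays at the same place on both slides were nearly equal. On slide averages GDPD1 rose by 1.47-fold (log2 change 0.56, SE 0.082, adjusted p = 0.018), from 0.58 ± 0.021 to 1.14 ± 0.0081 (SD, n = 2 slide averages). These SDs leave out the difference between places, over which the tt8-3 arrays ran from 0.97 to 1.32.

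The rise of GDPD1 was 0.57 on slide 1 and 0.55 on slide 2, and 0.80 at the first place against 0.32 at the second. Its adjusted p was 0.18 with arrays of 1 place averaged. A second probe of GDPD1, well above background on 1 wild-type and 2 tt8-3 arrays, differed by -0.28 on slide 1 and 0.60 on slide 2, and the median over both probes gave 0.36 (adjusted p = 0.28). The call was lost without wild-type replicate 1 or 3, without tt8-3 replicate 1 and without any 1 of the 4 slide averages, at an adjusted p of 0.056 to 0.12.

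GDPD5 (AT1G74210), of the same family, had levels of -3.59, -3.53, -3.70 and -3.78 in wild type and -2.41, -2.25, -2.62 and -2.43 in tt8-3. The lines were over 0.9 log2 units apart on every array, and GDPD5 rose by 2.33-fold (log2 change 1.22, SE 0.12, adjusted p = 0.0090). It also passed with arrays of 1 place averaged (adjusted p = 0.035) and in all 12 fits that left out arrays.

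GDPD2 (AT5G41080) had a difference of 0.06 (95% interval -0.27 to 0.38, adjusted p = 0.76). Behind that average the 2 places went opposite ways, with 1.00 at the first place of each line and -0.89 at the second. A second GDPD2 probe, well above background on every array, differed by -0.26, with -0.29 on slide 1 and -0.23 on slide 2. Its differences were 0.55 at the first place and -1.06 at the second. GDPD4 (AT1G71340) differed by 0.00 (95% interval -0.40 to 0.40, adjusted p = 0.99), with the groups overlapping, and by -0.09 on a second probe. GDPD3 (AT5G43300) was well above background on 1 array of tt8-3 and on none of wild type, and was not tested. Of the 4 other family members tested, GDPD1 among them, 2 were called higher and 0 lower by limma on slide averages, against 15.7% higher and 10.9% lower over all genes, a background at which 0 lower of 4 is no result about the family.

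**Figure D3:**
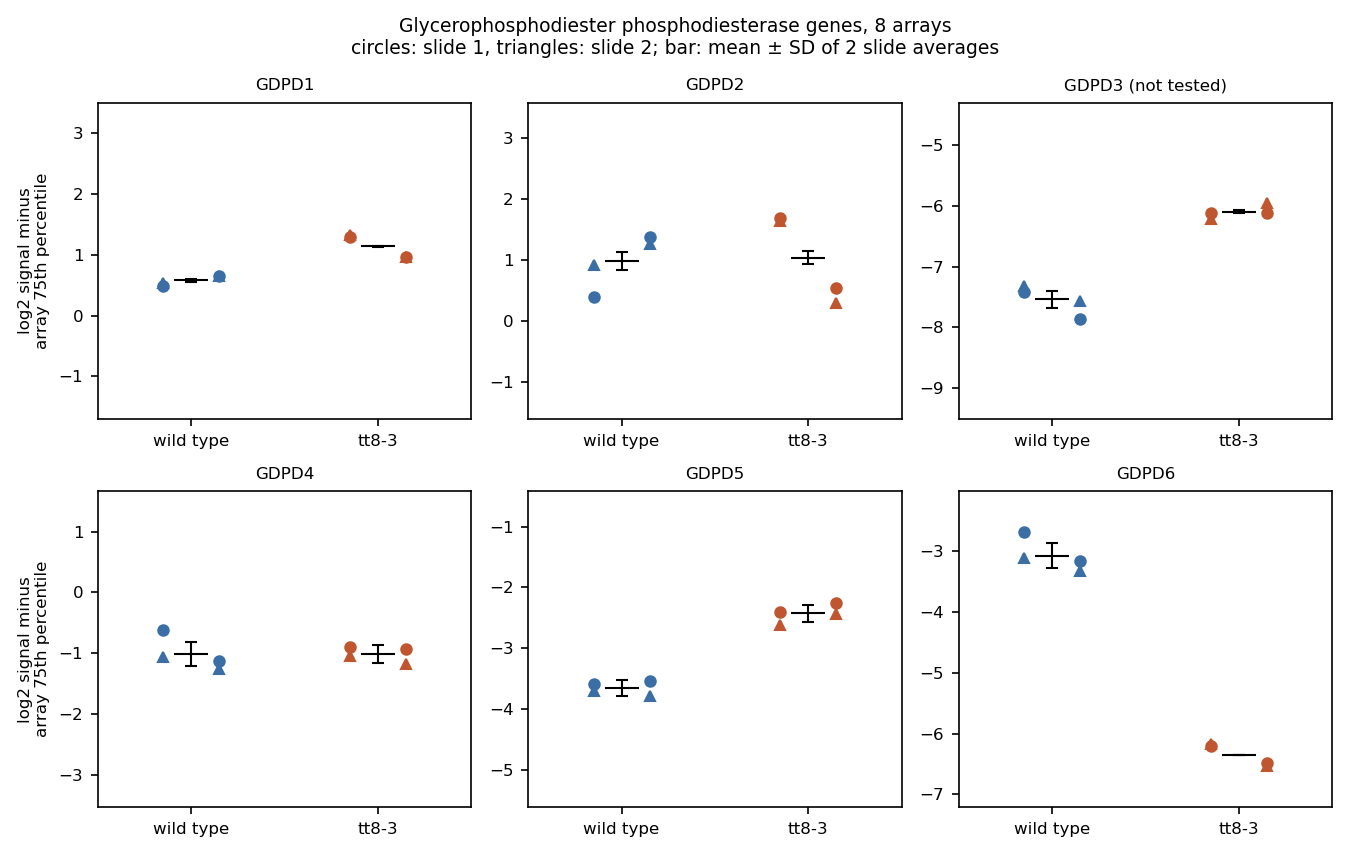
Levels of GDPD1 to GDPD6 (y axes, log2 signal less the array's 75th percentile) on 4 wild-type and 4 tt8-3 arrays (x axis), with circles for slide 1, triangles for slide 2, left and right points for the first and second place, and bars for the mean ± SD of 2 slide averages. GDPD6 is lower in tt8-3 on every array, GDPD1 and GDPD5 are higher, and GDPD2 rises at the first place and drops at the second.

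A wider list of 56 other phosphate starvation genes was set beside the 10. Of these, 55 had a probe and 43 were tested, of which 6 were called higher, 10 lower and 27 in neither direction. The background is 15.7% higher and 10.9% lower over all genes. Their changes ran from -1.50 to 1.55, with a median of -0.09 against 0.01 over all genes. None came near the -3.27 of GDPD6, which the choice of GDPD6 by its change had fixed in advance. With arrays of 1 place averaged 2 were called higher (LPR1 and GDPD5) and 0 lower by limma (4 higher and 7 lower at an unadjusted p under 0.05), and with slide as a block 14 higher and 14 lower.

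Among the sensing and signalling genes, 3 of 19 tested were called higher and 3 lower, against 15.7% and 10.9% of all genes. Their median change was 0.18. LPR1 (AT1G23010), a ferroxidase that arrests root growth at low phosphate, had levels of -5.45, -5.25, -5.88 and -5.67 in wild type and -3.88, -4.04, -4.13 and -3.99 in tt8-3, and was called higher (log2 change 1.55, SE 0.17, adjusted p = 0.011). It was well above background on 1 wild-type and 4 tt8-3 arrays, so it entered the test through tt8-3 alone and the size of its change rests on a wild-type level near background. A second LPR1 probe was well above background on 1 array in all and differed by 0.09, and with normexp without flagged backgrounds LPR1 changed by 0.33 (adjusted p = 0.27).

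LPR2 (AT1G71040), its paralogue, went the other way and fell by 0.68 in log2 (SE 0.084, adjusted p = 0.013). NLA (AT1G02860), a ubiquitin ligase that removes PHT1 transporters, fell by 0.46 (SE 0.083, adjusted p = 0.027). WRKY6 (AT1G62300), a repressor of PHO1, fell by 0.48 (SE 0.090, adjusted p = 0.030), with 0.15 at the first place and -1.10 at the second. A second WRKY6 probe, well above background on every array, differed by -0.30 (adjusted p = 0.17 by limma over probes). None of these 3 genes passed with arrays of 1 place averaged (adjusted p = 0.18, 0.28 and 0.45). The master regulator PHR1 (AT4G28610) differed by 0.28 (adjusted p = 0.077, or 0.012 with slide as a block), and the starvation-induced non-coding RNA IPS1 stayed near background throughout, well above it on none of the 8 arrays.

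Of 8 transport genes tested besides PHT1;1 and PHT1;4, 0 were called higher and 4 lower by limma on slide averages, with a median of -0.46. At an unadjusted p under 0.05 the counts were also 0 and 4. By limma on slide averages, 15.7% of all genes tested were called higher and 10.9% lower. PHT2;1 (AT3G26570), the plastid phosphate transporter of green tissue, had levels of 3.91, 3.26, 4.02 and 3.34 in wild type and 2.52, 2.49, 2.58 and 2.59 in tt8-3. Its groups were well apart, and it fell by 1.09 (SE 0.093, adjusted p = 0.0069), with -1.57 on its second probe.

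G3Pp1 (AT3G47420), a glycerol-3-phosphate permease, fell by 0.89 (SE 0.097, adjusted p = 0.010). PHO1;H1 (AT1G68740), a homologue of the xylem loader PHO1, fell by 0.51 (SE 0.098, adjusted p = 0.030), with -1.06 at the first place and 0.04 at the second. None of the 4 passed with arrays of 1 place averaged (adjusted p = 0.051 to 0.40).

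Since roots take up phosphate and PHT2;1 is a gene of green tissue, markers of both organs were read on the same arrays. The 8 shoot markers were well above background on all 8 arrays and all 8 were lower in tt8-3 on both slides, as were 44.1% of all genes, with a median change of -0.41. Of them 1 was called lower on slide averages (LHCB2.1 at -2.41, whose other probe stood at 4.43), and 8 with slide as a block. Their summed level was 9.87 to 11.00 in wild type and 9.78 to 10.49 in tt8-3. Of the 9 root markers 1 was called higher (PYK10 at 0.71) and 1 lower (the nitrate transporter NRT2.1 at -2.05), with a median change of -0.02. The log2 of their summed signals, in which the brightest markers weigh most, was 4.52 to 5.56 in wild type and 5.42 to 5.67 in tt8-3. The median level over their 9 probes was -1.74 to -1.32 in wild type and -3.59 to -2.80 in tt8-3. That level follows whichever marker lies in the middle on an array. It does not give the change of the markers as a group, whose median was -0.02. No marker of either list was below background on all arrays, and the part of organ proportions in the transport results was not tested.

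In lipid remodelling, 2 of 10 genes tested were called higher and 2 lower, against 15.7% and 10.9% of all genes. Their median change was -0.05. Beside GDPD5, PLDZ1 (AT3G16785), a phospholipase D, rose by 0.46 (SE 0.10, adjusted p = 0.041). Its paralogue PLDZ2 (AT3G05630), the phospholipase D known to be induced by phosphate shortage, fell by 0.71 (SE 0.13, adjusted p = 0.027). DGD1 (AT3G11670), which makes digalactolipid, fell by 0.69 (SE 0.16, adjusted p = 0.044), with -0.74 on a second probe. Outside GDPD5, none of these calls held with arrays of 1 place averaged (adjusted p = 0.10 to 0.22). The phospholipases NPC4 and NPC5 were well above background on none of the arrays.

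Among 6 phosphatase and RNase genes tested, 1 was called higher and 1 lower, against 15.7% and 10.9% of all genes. Their median change was -0.14. PAP17 (AT3G17790), a secreted acid phosphatase induced by phosphate shortage, had levels of -0.94, -0.65, -0.75 and -0.63 in wild type and -1.67, -1.63, -1.60 and -1.53 in tt8-3. The groups were clearly apart, and PAP17 fell by 1.82-fold (log2 change -0.87, SE 0.094, adjusted p = 0.010, or 0.072 with arrays of 1 place averaged). PPsPase1 (AT1G73010), a pyrophosphatase, rose by 0.40 (SE 0.084, adjusted p = 0.037), against 0.08 on a second probe. RNS1 (AT2G02990), an induced ribonuclease, differed by 0.21 (adjusted p = 0.22, or 0.043 with slide as a block), and the acid phosphatase PAP12 (AT2G27190) by -0.13 (adjusted p = 0.33). A second PAP12 probe differed by -0.41 (adjusted p = 0.084 by limma over probes), with every tt8-3 array below every wild-type array.

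**Figure D4:**
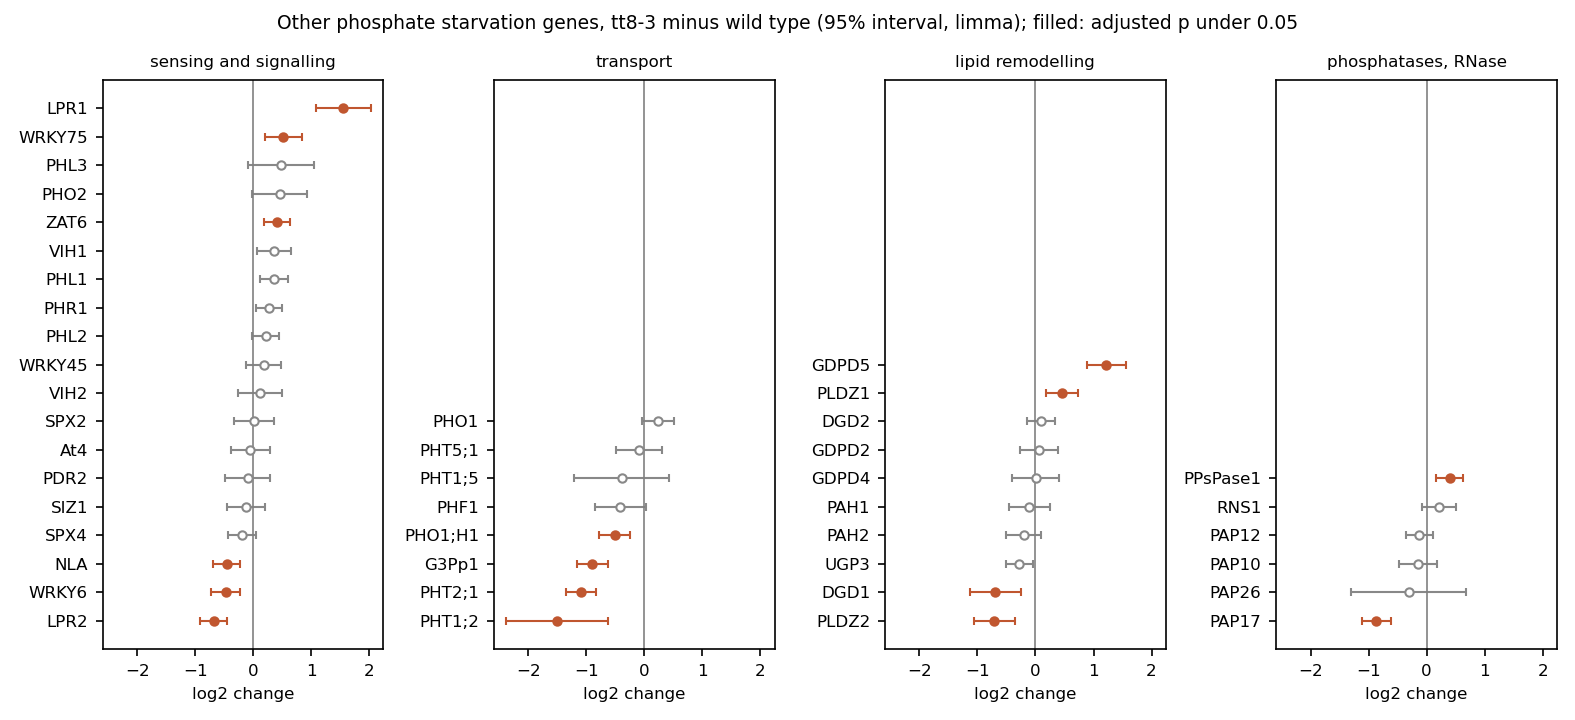
Log2 change, tt8-3 minus wild type (x axis), of 43 other phosphate starvation genes in 4 groups by role (panels), on slide averages. Bars are 95% intervals from limma, and filled points have an adjusted p under 0.05. Genes lie on both sides of 0 in every group, and none is lower than PHT1;2 at -1.50.

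Of the 16 calls in these 4 groups, those of GDPD5, PHT2;1 and PAP17, and that of LPR1 with the limit given above, were kept in all 12 fits that left out 1 array or 1 slide average. The call of G3Pp1 was lost without tt8-3 replicate 1. Those of LPR2, PLDZ2, DGD1 and PHO1;H1 were lost in 4, 6, 9 and 9 of the 12 fits, those of NLA and PLDZ1 in 10, and those of WRKY6 and PPsPase1 in 11. For each of these 8, the fits without wild-type replicate 2, without wild-type replicate 4 and without either wild-type slide average were among those that ended the call. The remaining 2 calls, beside that of PHT1;2 above, were lost in 10 fits each.

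The genes most like GDPD6 were sought by Pearson correlation of levels over the 8 arrays, among 19226 other genes. The closest were AT5G44565 (r = 0.998, log2 change -1.58), SPS2 (AT1G17050, a solanesyl diphosphate synthase, r = 0.997, change -0.70), AT3G03040 (r = 0.997, change -0.63), CYP706A5 (AT4G12310, a cytochrome P450, r = 0.995, change -1.16) and AT1G54120 (r = 0.994, change -0.98). None belongs to the phosphate lists, and 20 genes had r over 0.99. The arrays share the difference between lines, which sets most of such a correlation. Within lines, with each line's mean removed, r was 0.90, 0.85, 0.82, 0.73 and 0.76 for the 5 named genes in that order. Those 5 were picked by r on the same arrays, so these values are a description. Of the listed loci, SQD1 and PHT1;1 were nearest to GDPD6 (r = 0.82 each) and GDPD1 was farthest (r = -0.89). With each line's mean taken out, r was 0.52 for SQD1, 0.17 for PHT1;1 and 0.24 for GDPD1, and ran from -0.39 for PHT1;4 to that of SQD1 over the 8 loci, so the order over all arrays is mainly that of the line differences.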

How the data were processed

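The members and lists were chosen with earlier results of these data known. Total RNA of 8 seedling samples was read on 1-colour Agilent arrays. Per the file headers and the submitters' processing notes, Agilent Feature Extraction 10.7.1.1 gave the spot intensity values: gProcessedSignal is background-subtracted, and flags mark uneven or saturated spots (0 saturated). The authors' deposited table is in log2, and its values match gProcessedSignal after division by each array's 75th percentile, centred per probe and slide. Further steps are not given in the sources used here.

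Main values were log2 gProcessedSignal minus the 75th percentile of the array, without control and flagged spots (4 to 23 per array). Probes were named by their accession through RefSeq's gene table (34358 of 43603 named, 9245 not), gene names being those in common use. The brightest probe stood for a gene, and a gene entered the test if either line had it well above background on its 4 arrays, as 19227 did. The bound for TT8 sets its wild-type mean against the lowest signal well above background on each tt8-3 array, or its own value if higher. Slide averages were fitted with limma 3.58.1 (lmFit, eBayes) in R 4.3.3. The threshold was 0.05 on Benjamini-Hochberg values adjusted over those 19227 genes, and the steps were tested on simulated data. Slide numbers in the sample descriptions pair the averages (correlation of deviations of same-slide averages 0.78), so the fit with slide as a block is given where it changes a call. Named are TT8, all members, up to 4 genes of each other list with the smallest p, and the 5 genes most like GDPD6; LHCB2.1, PYK10, NRT2.1, PHR1, IPS1 and further family members were named after their values were seen. Alternatives were other averagings, background corrections, scalings, filters and probe choices, the authors' table, and leaving out arrays. normexp used the median spot signal, and the mean signal was not used here. The number of arrays limits the precision. Promoter and protein sequences were not used here.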

Additional observations from a re-analysis of the deposited data

How the results depend on the processing

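Counts below are of listed loci called higher and lower, without GDPD6, which was chosen by its change, then of the 43 other phosphate starvation genes. On slide averages they were 2 and 1, and 6 and 10. They were 0 and 0, and 2 and 0, with arrays of 1 place averaged (limma; 2 and 2, and 4 and 7, at an unadjusted p under 0.05). With slide as a replicate block they were 3 and 3, and 14 and 14, and the block removed no call. All 3 calls of members other than GDPD6 and all 16 others remained. Centring per slide, as in the authors' table, removes slide spread that the fit does not count, which makes its p-values too small. On that table the counts were 3 and 4, and 15 and 19. Without the filter on dim probes they were 0 and 0 (limma; 2 and 1 at an unadjusted p under 0.05), and 3 and 4. With normexp on all spots they were 0 and 0, and 0 and 0 (limma; 2 and 2, and 4 and 5, at an unadjusted p under 0.05). That fit failed on tt8-3 replicate 4, where it set the background at -683.7 against 3.36 to 12.4 on the other arrays, with local backgrounds reaching 35326. Normexp without flagged backgrounds, chosen after seeing the data, gave 1 and 1, and 4 and 8. Quantile normalization called 1 locus higher and 2 lower, the random block 2 lower, and the median over probes 1 higher. Median scaling called 1 locus and 2 other genes higher; it moved the median of all genes from 0.01 to -0.09 and the calls over all genes from 3027 higher and 2104 lower to 2150 and 2632. Over all genes, averaging by place gave 526 and 73, with 575 of these calls shared with the slide averages, the slide block 6492 and 5902, the authors' values gave 7186 and 6704, no filter 1580 and 826, and normexp on all spots 91 and 14. Leaving out arrays gave 1471 to 2974 higher and 576 to 2060 lower. Over the 12 fits that left out arrays, the counts ranged over 0 to 2 and 0 to 2, and over 2 to 5 and 3 to 9. The sign turned for PHT1;4 (0.13) and MGD3 (0.34) with normexp on all spots and for SQD2, which ranged from -0.40 to 0.039 over the leave-one-out fits and was above 0 without the tt8-3 average of slide 2. The other listed loci tested kept their sign in all 22 alternatives. PHO1;H1 was at 0.27 with normexp on all spots, and the other 15 called genes of the wider list kept their sign. GDPD6 was at -0.54 with normexp on all spots and at -3.44 with quantile normalization. Signal over background limits SPX3, the tt8-3 level of GDPD6 and the wild-type level of LPR1.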

Other observations

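The genes around GDPD6 on chromosome 5, were looked at after its values were seen. Of the 5 annotated genes on each side, 8 were tested, with changes from -0.41 to 2.24, and limma on slide averages called 2 higher and 0 lower, near the 15.7% and 10.9% over all genes. E13L3 (AT5G08000), a gene of the family of plasmodesmal callose-binding and glucanase-like proteins, rose by 2.24 on the log2 scale (adjusted p = 0.0026), and AT5G08010 rose by 0.58 (adjusted p = 0.025). The direct neighbours RPA70B (AT5G08020), a subunit of a single-stranded DNA-binding complex, and TOM5 (AT5G08040), of the mitochondrial import pore, differed by 0.11 and -0.02 (adjusted p = 0.59 and 0.95).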
